A study of Mus musculus with 4 samples.

Results

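In the Inv:Del(CBS7-10) library, 5349 of 80018 CTCF peak intervals held more than 1 summit (6.68%, 95% Wilson interval 6.51 to 6.86). They were found as intervals with the same chromosome, start and end on 2 or more lines of the deposited list, on the 18 autosomes other than chromosome 11, and together carried 11195 of 85864 summits. A summit is the position of highest signal that the peak caller reported within an interval, and the list has 1 line for each. The members were chosen by this count of lines in 1 list. Summit number, spacing, width and height in that list are therefore given as descriptions, while the other 3 lists and the gene annotation were not used in the choice.

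The 4 libraries came from mouse embryonic stem cells (mESC), 1 library per genotype, so no p-value is given and intervals cover counting error only. In every line one chromosome 11 carried the HoxB Del allele and the homologue carried Del(i9-13) together with Ins(CBS5-10), a block of inserted CTCF binding sites. The Ins line had nothing further, the Del(CBS8-10) line lacked CBS8-10 of that block, the Inv line had it inverted as Inv(CBS5-10), and the Inv:Del(CBS7-10) line had it inverted and without CBS7-10. The edits lie on chromosome 11, which is outside the intervals described here. The Inv:Del(CBS7-10) list was the longest, with 99177 peak lines, followed by Ins (93969), Del(CBS8-10) (74555) and Inv (66365). The read depth behind each list is unknown.

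CTCF is a zinc-finger protein that binds a long, directional DNA motif and stops cohesin as it extrudes chromatin loops. Many loci carry several CTCF sites close together, among them the Hox clusters, the clustered protocadherins and imprinted control regions, and gene promoters hold some of the sites. In CUT&RUN a nuclease tethered by the antibody cuts around the bound protein, so that neighbouring sites give separate maxima of released fragments when they lie far enough apart.

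Promoter windows of the RefSeq table (GRCm38.p6) show what lies under such summits. Each runs from 250 bases before to 50 bases after a gene start on the gene's strand. Those in the first set hold 2 summits of 1 interval inside a single window, and the 21 bases centred on each summit are in capitals (fewer where the window ends). Of the 6 with the highest −log10 q of the second strongest summit, those of Aamdc and Plk1 are not shown, since a summit fell within 5 bases of the window's end. Shown are those of Adsl, a gene of purine synthesis, at chr15:80948240-80948539 (plus strand), Ifit2, an interferon-induced gene, at chr19:34550838-34551137 (plus strand), Stip1, a co-chaperone gene, at chr19:7039977-7040276 (minus strand) and Pear1, a platelet receptor gene, at chr3:87768904-87769203 (minus strand).
Adsl: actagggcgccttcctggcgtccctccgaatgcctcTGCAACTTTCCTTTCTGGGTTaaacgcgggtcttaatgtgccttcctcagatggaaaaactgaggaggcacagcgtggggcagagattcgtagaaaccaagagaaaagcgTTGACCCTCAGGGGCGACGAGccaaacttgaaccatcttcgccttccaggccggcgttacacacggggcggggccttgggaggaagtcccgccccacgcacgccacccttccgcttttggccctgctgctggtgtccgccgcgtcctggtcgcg
Ifit2: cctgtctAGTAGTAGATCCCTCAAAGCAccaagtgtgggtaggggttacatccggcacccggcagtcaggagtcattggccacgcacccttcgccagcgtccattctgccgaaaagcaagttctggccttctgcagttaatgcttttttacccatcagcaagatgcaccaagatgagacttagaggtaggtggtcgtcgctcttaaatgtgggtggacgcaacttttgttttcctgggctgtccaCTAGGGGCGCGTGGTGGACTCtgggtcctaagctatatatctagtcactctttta
Stip1: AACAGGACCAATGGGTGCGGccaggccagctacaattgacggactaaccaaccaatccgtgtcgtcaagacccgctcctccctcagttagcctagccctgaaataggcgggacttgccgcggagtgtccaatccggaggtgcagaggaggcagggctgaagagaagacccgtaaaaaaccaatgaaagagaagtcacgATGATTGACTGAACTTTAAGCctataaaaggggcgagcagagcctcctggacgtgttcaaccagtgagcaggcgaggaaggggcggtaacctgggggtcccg
Pear1: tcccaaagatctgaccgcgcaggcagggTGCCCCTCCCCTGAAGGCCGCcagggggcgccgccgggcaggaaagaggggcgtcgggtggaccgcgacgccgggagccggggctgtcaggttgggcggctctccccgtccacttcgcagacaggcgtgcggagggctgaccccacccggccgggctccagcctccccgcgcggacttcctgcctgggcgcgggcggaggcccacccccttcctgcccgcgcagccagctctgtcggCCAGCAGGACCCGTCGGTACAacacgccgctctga

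The second set, picked after the values were seen, holds a match to CCA, any 2 bases, AG, any 2 bases and GGC, a short form of the core CTCF motif, within 50 bp of a summit, and the match is in capitals. They are those of Hs1bp3 at chr12:8313183-8313482, Cryz at chr3:154596461-154596760, Bola2 at chr7:126695750-126696049 and Gm9222 at chr12:17881623-17881922, all on the plus strand. Every summit of these 4 intervals was found within 100 bp in all 3 other lists. They are the 4 such intervals with the highest −log10 q of the second strongest summit, and in Bola2 the match reads on the opposite strand.
Hs1bp3: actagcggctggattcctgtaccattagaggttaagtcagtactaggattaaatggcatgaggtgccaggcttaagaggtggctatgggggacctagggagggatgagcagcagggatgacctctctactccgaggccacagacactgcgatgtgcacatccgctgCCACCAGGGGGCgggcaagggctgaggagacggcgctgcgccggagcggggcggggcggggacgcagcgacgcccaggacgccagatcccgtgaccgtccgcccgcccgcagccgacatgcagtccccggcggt
Cryz: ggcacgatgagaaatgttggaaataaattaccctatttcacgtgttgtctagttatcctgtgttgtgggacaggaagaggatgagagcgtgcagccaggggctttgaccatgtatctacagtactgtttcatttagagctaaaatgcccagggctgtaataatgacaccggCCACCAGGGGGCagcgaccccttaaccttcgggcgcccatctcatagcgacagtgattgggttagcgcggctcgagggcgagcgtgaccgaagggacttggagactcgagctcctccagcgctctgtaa
Bola2: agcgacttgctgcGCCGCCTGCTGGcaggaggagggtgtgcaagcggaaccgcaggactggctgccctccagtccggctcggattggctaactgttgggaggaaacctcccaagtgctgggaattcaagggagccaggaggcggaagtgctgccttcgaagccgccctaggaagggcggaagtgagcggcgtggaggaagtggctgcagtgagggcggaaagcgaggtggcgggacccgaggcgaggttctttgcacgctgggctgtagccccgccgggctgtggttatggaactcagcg
Gm9222: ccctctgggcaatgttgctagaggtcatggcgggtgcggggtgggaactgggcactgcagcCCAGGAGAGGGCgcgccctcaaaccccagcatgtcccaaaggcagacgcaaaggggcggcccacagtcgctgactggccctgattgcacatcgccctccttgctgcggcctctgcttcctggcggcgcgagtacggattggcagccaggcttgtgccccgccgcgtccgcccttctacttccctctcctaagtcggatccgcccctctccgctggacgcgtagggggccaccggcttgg

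In these windows, the summit of Hs1bp3 fell on base 174 of its window, inside the match at bases 167 to 178, and that of Bola2 on base 15, inside the match at bases 14 to 25. The summit of Cryz fell on base 197, and its match spans bases 172 to 183. In Gm9222 the summit fell on base 109 and the match spans bases 62 to 73. In Pear1 the looser form, in which any base may follow the leading CC in place of the A, matched at bases 46 to 57, beside the stronger summit at base 39. No match lay in the window of Adsl, Ifit2 or Stip1 under either form.

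Most members held 2 summits (4910), fewer held 3 (396) or 4 (38), 3 held 5 and 2 held 10. Members made up between 5.66% of the intervals of chromosome 13 and 8.28% of those of chromosome 19. The same rule gave 4894 members in the Ins list (6.46% of 75740 intervals), 2587 in the Del(CBS8-10) list (4.19% of 61778) and 1733 in the Inv list (3.18% of 54427). The lists stood in the same order by number of members and by number of lines.

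Adjacent summits of a member lay a median of 278 bp apart (95% interval of the median 276 to 280, n = 5846 pairs). The settings of the peak caller are not known, and whether they limit the spacing was not tested. Spacings over 200 and up to 350 bp made up 75.8% of pairs, those up to 200 bp 3.63%, and 306 pairs were over 500 bp apart. Spacing differed little with the number of summits, the median being 278 bp in intervals with 2 summits, 277 bp with 3 and 287.5 bp with 4. It was 278 bp in the Ins list and 268 bp in both the Del(CBS8-10) and the Inv list.

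Members were a median of 700 bp wide (696 to 705), and single-summit intervals 355 bp (353 to 358). A width above the spacing is fixed by the rule, so this difference is a description. Width rose from a median of 689 bp with 2 summits to 955 bp with 3 and 1247 bp with 4. No interval of the list was under 200 bp. At the edge of the rule, the widest interval with a single summit measured 1131 bp and the narrowest member 272 bp, and the lowest −log10 q of a further summit was 1.32. Separate intervals lay as close as 43 bp, and their strongest summits as close as 176 bp, which is nearer than most summits sharing an interval.

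**Figure D1:**
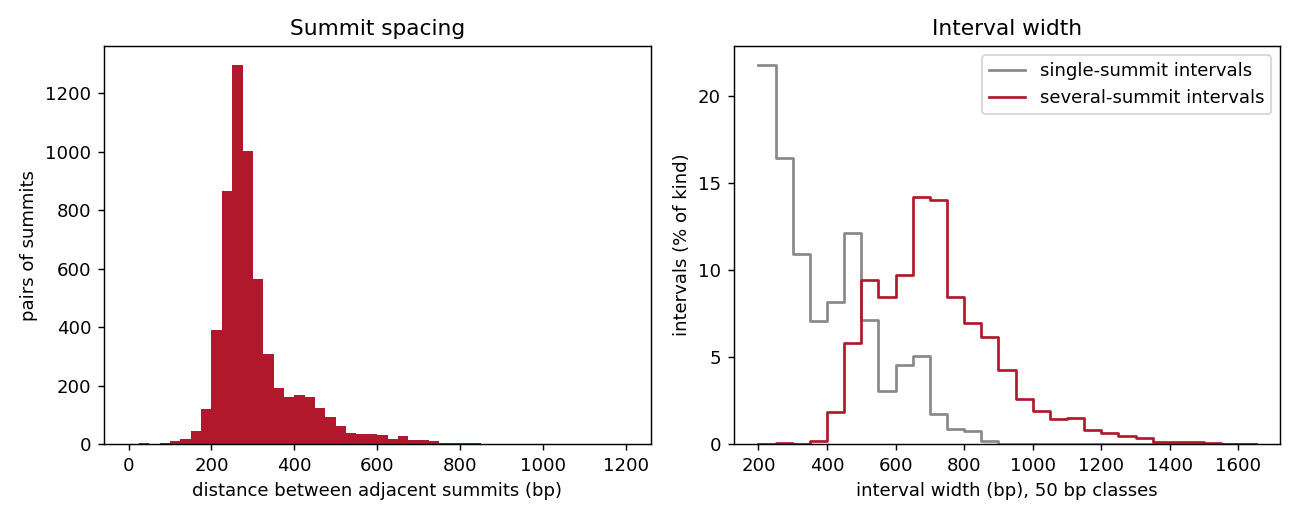
Left, distance in bp between adjacent summits of the same interval in 25-bp classes (5846 pairs). Right, width in bp of single-summit (grey) and several-summit (red) intervals as a percentage of each kind, leaving out 3 members over 1700 bp; spacings peak near their median of 278 bp and members are wider, with medians of 700 against 355 bp.

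Within a member the summits were usually unequal. The summit with the highest −log10 q is called the strongest here and the others further summits, so their order in height is fixed by the naming. Median −log10 q was 98.0 for strongest, 12.4 for further and 22.9 for single summits. The pileup, the number of fragments covering the summit, was recovered from the deposited fold and p-value, and its median was 116, 34 and 33 in the same order. In members with 2 summits the second had a median of 0.406 of the pileup of the strongest (0.396 to 0.418). It reached at least 0.8 in 16.1% of them (791 of 4910) and was under 0.25 in 27.3% (1338). The strongest summit lay at the higher coordinate in 51.3% of these intervals.

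Of all summits on these chromosomes, 72.0% had a summit within 100 bp in the Ins list and 45.2% in all 3 other lists. The share was 59.8% for the Del(CBS8-10) list and 56.3% for the Inv list. Member summits stood near these shares, at 70.8% (7926 of 11195) for Ins, 59.7% for Del(CBS8-10), 56.7% for Inv and 47.4% for all 3 (5304, interval 46.5 to 48.3). With summits of −log10 q of at least 10 only, members were below all summits in all 3 lists, at 59.7% against 63.4%. With matching within 250 bp they were above them, at 56.9% against 48.0%, and likewise inside any interval of the other lists, at 55.5% against 47.4%. At both of these settings a single summit or interval of another list can match several summits of a member. A higher share of members is therefore partly built in and is not read as a result. Within 100 bp, the strongest summits and the further summits of members differed widely around the share of all member summits. Strongest summits were found in 92.0%, 85.0% and 82.7% of cases and in all 3 lists in 75.8% (4057 of 5349). Further summits were found in 51.4%, 36.4% and 32.9% of cases and in all 3 lists in 21.3% (1247 of 5846).

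Intervals as a whole therefore returned in part. In members with 2 summits, the strongest alone was found in the Ins list in 45.3% of cases, both in 46.3%, the second alone in 3.60% and neither in 4.77%. In the Del(CBS8-10) list the strongest alone was found in 53.3% and both in 31.2%, and in the Inv list in 55.1% and 26.9%. Every summit was found in every list for 889 members (16.6%, interval 15.6 to 17.6).

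At like −log10 q further summits were still found less often than single ones. Among summits with a −log10 q over 20 and up to 50, 45.9% of single summits (6170 of 13430) were found in all 3 lists, 54.1% of strongest summits (487 of 901) and 29.5% of further summits (329 of 1116, interval 26.9 to 32.2). Over 100 and up to 200, the shares were 98.1%, 98.7% and 86.0% (288 of 335, interval 81.8 to 89.3). Further summits also stood on a higher local background, with a median of 7.76 fragments in the first of these classes against 2.00 for single summits. With the background held over 5 and up to 8, 27.5% of further (85 of 309) and 45.5% of single summits (440 of 968) were found, and above 12 29.2% and 41.1%.

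**Figure D2:**
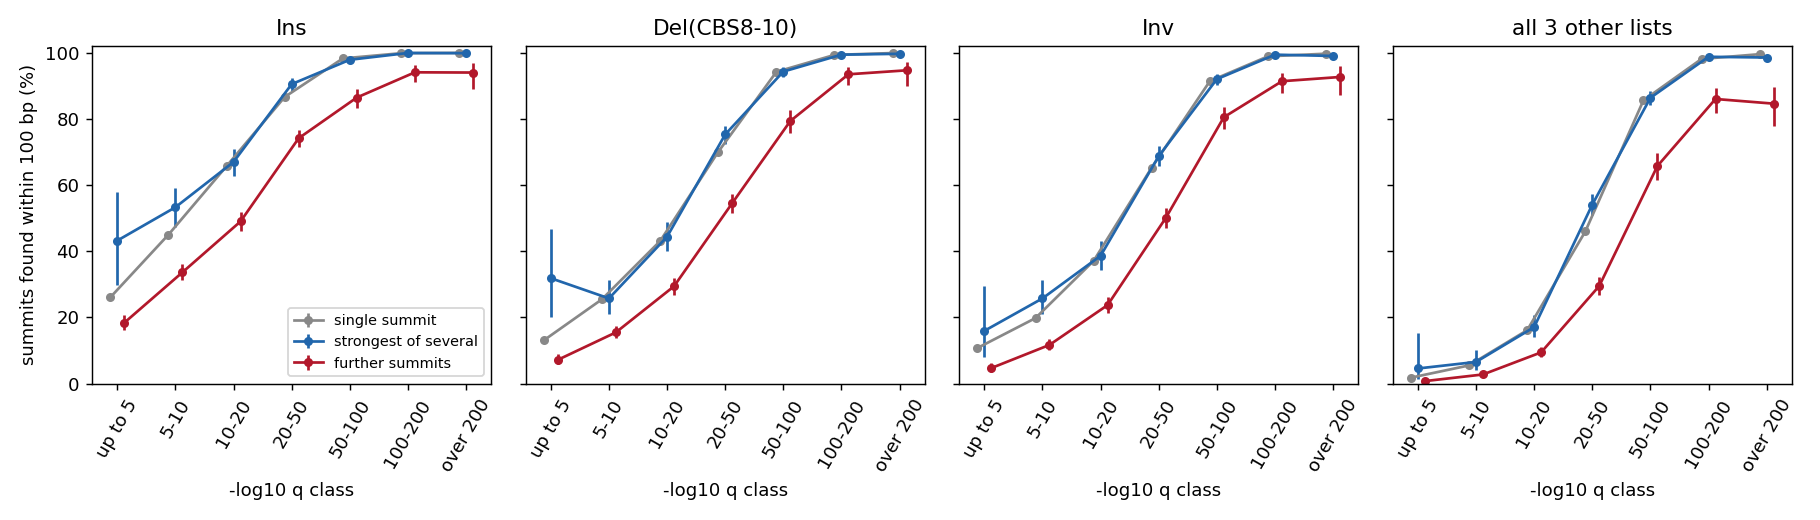
Percentage of summits of the Inv:Del(CBS7-10) list with a summit within 100 bp in the Ins, Del(CBS8-10) and Inv lists and in all 3, by −log10 q class; bars are 95% Wilson intervals. Further summits of several-summit intervals (red) lie below single summits (grey) in every class and list, and strongest summits (blue) lie close to or above the single ones in most.

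In members with 2 summits, the second was found more often at spacings above 300 bp. It was found in all 3 lists in 14.1% of pairs up to 200 bp apart (25 of 177), 12.8% of pairs over 200 and up to 250 bp apart (137 of 1070), 12.6% over 250 and up to 300 bp, and 19.8% over 300 and up to 350 bp. Over 350 and up to 500 bp the share was 34.8% (256 of 735), and over 500 bp it was 60.1% (161 of 268, interval 54.1 to 65.8). It also rose with relative height, from 2.91% (39 of 1338) where the pileup was under 0.25 of the strongest to 35.2% (276 of 785) where it was between 0.8 and equal. Spacing and height were not separated here. Where found, a further summit lay a median of 13 to 15 bp from its match in each list, and a strongest summit 6 to 9 bp.

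The other lists often drew the same region differently. In the Ins list 44.7% of members (2391) overlapped 1 interval with several summits, 42.4% overlapped 1 interval with a single summit, 9.01% overlapped several intervals and 3.93% none. In the Inv list the shares were 18.4%, 55.9%, 14.5% and 11.2%, and in the Del(CBS8-10) list 24.8%, 52.2%, 12.9% and 10.1%. Overlap with 1 interval only, itself with several summits, was seen in all 3 other lists for 558 members (10.4%, interval 9.64 to 11.3). It was seen in none for 2593 (48.5%). A member overlapping several intervals of a list was not counted for that list, whatever summits those intervals held. Of single-summit intervals, 3.44% overlapped 1 interval with several summits in the Ins, 1.63% in the Del(CBS8-10) and 0.924% in the Inv list. In number the single-summit intervals that did so were 2570, 1217 and 690, against 2391, 1328 and 984 members. Several-summit intervals made up 6.46%, 4.19% and 3.18% of the intervals of those lists.

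Members lay at gene starts more often than single-summit intervals did. Of all intervals outside chromosome 18, for which the table of starts has no entry, 7.40% had their strongest summit within 1 kb of the start of a protein-coding gene. The share was 12.6% for members (650 of 5175, interval 11.7 to 13.5) and 7.03% for single-summit intervals (5089 of 72389, 6.85 to 7.22). With 3 summits it was 14.3% (54 of 377, 11.1 to 18.2), which overlaps the interval for 2 summits at 12.4% (11.5 to 13.3). The table holds starts for 15186 of 19056 protein-coding genes of these chromosomes, so every share is a lower bound. Using the strongest summit alone gives each interval 1 chance whatever its width or summit number.

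The ratio between the kinds was larger among intervals of like width. Over 500 and up to 600 bp, 17.3% of members (160 of 925) and 5.89% of single-summit intervals (427 of 7255) were at a start, and over 600 and up to 700 bp 13.7% and 2.95%. At like −log10 q over 20 and up to 50, the shares were 18.6% (163 of 877) and 8.02% (1045 of 13029), and over 100 and up to 200 they were 9.67% and 3.30%. In the other lists the shares of several-summit and single-summit intervals were 13.8% and 8.22% (Ins), 10.9% and 6.72% (Del(CBS8-10)) and 13.8% and 8.59% (Inv). Inside the span of a protein-coding gene the 2 kinds were much closer, with 46.9% of members (45.5 to 48.2) and 48.0% of single-summit intervals (47.7 to 48.4).

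**Figure D3:**
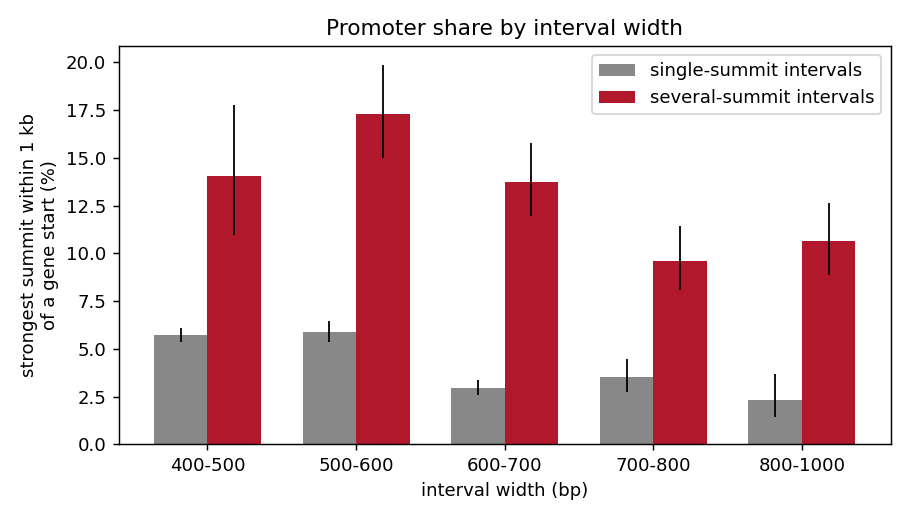
Percentage of intervals whose strongest summit lies within 1 kb of a protein-coding gene start, by interval width in bp, for single-summit (grey) and several-summit (red) intervals; bars start at 0 and lines are 95% Wilson intervals. The several-summit share is higher in all 5 classes, for example 17.3% against 5.89% over 500 and up to 600 bp.

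At gene starts the summits of members lay mainly upstream. Of 589 promoter members with 2 summits, both lay upstream of the nearest start in 60.6% (357, interval 56.6 to 64.5), the start lay between them in 25.6% (151, 22.3 to 29.3), and both lay downstream in 13.8% (81). The strongest summit was upstream or at the start in 78.3% (74.8 to 81.4), and the summit of single-summit promoter intervals in 74.7% (73.4 to 75.8), with overlapping intervals. With upstream distances written as negative, its median place was −112 bp (interval −147 to −93), against −81 bp (−85 to −77) for single summits. Starts on both strands within 1 kb were as common in both kinds within their intervals, at 8.62% (6.69 to 11.02) and 8.76% (8.02 to 9.57).

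**Figure D4:**
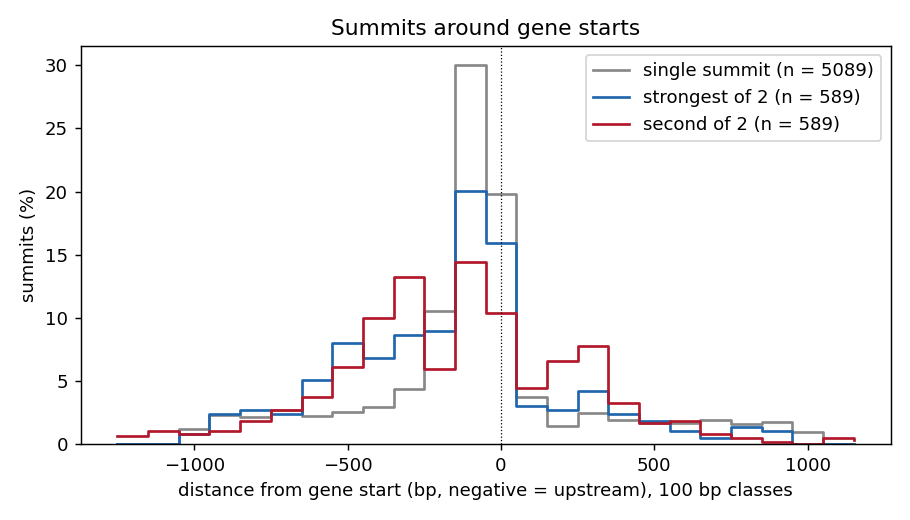
Distance in bp from the nearest protein-coding gene start, negative upstream, in 100-bp classes, for single summits (5089) and for the strongest and the second summit of members with 2 summits (589 each), as a percentage of each set. The strongest and single summits were selected to lie within 1 kb; single summits crowd just upstream of the start, and second summits spread to both sides.

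As a description within the same list, promoter members had weaker strongest summits and more even pairs than other members. Their strongest summit had a median −log10 q of 57.2 (47.5 to 64.7) against 104 (99.8 to 109) elsewhere, and further summits had 13.8 and 11.99. The pileup of the second relative to the strongest summit was 0.545 (0.514 to 0.594) at promoters and 0.384 (0.373 to 0.395) elsewhere, while spacing was alike at 281 and 277 bp. Median pileup was 72 and 122 for strongest summits but 33.5 and 34 for further summits. The ratio was thus not separated from the height of the strongest summit. Further summits of promoter members were found in all 3 lists in 28.3% of cases (203 of 718, 25.1 to 31.7) and those of other members in 20.2% (997 of 4930, 19.1 to 21.4). Strongest summits went the other way, with 69.7% (453 of 650, 66.1 to 73.1) at promoters and 76.6% (3467 of 4525, 75.4 to 77.8) elsewhere. These were not compared at like −log10 q, which was lower at promoters. Among further summits with a −log10 q over 20 and up to 50, 49.4% (76 of 154, 41.6 to 57.2) and 26.3% (241 of 915, 23.6 to 29.3) were found, with median backgrounds of 6.48 and 8.04. Over 50 and up to 100 the shares were 72.9% (61.5 to 81.9) and 65.3% (60.7 to 69.7), with overlapping intervals.

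The same motif (CCA, any 2 bases, AG, any 2 bases, GGC), read on both strands, occurred in 2.36% of all 18524 promoter windows of 300 bases (438). It occurred in 7.09% of windows holding a member summit (41 of 578, interval 5.27 to 9.48) and in 4.85% of those holding only single summits (171 of 3524, 4.19 to 5.61), with overlapping intervals. Of windows with no summit, 1.57% held it. The looser form (CC, any 3 bases, AG, any 2 bases, GGC), which includes every match of the first, gave 25.4% (22.1 to 29.1), 18.05% (16.8 to 19.4) and 7.48%, and 10.1% of all windows. Of 39 distinct matches of the first motif in windows with a member summit, 34 lay nearest to the strongest summit of the interval and 29 lay within 50 bp of their nearest summit. How many of the 578 windows hold the strongest summit is not given here, so the 34 cannot be read as a preference for it. Of the 13 windows that held 2 summits of 1 interval, none held the first motif and 2 held the looser one. A match here is a description of the letters in the window.

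Of the 650 promoter members, 134 had every summit found in all 3 other lists, and the 12 with the highest −log10 q of the second strongest summit are described next. The first was at Gm7932 (chr6:48860096-48860912). Its summits 300 bp apart had −log10 q of 514 and 401 in the Inv:Del(CBS7-10) list, 286 and 210 in the Ins list, 133 and 79.1 in the Del(CBS8-10) list, and 181 and 83.3 in the Inv list. The first of these summits was the higher in all 4 lists.

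Dhx37, which encodes an RNA helicase of ribosome assembly, had summits 259 bp apart (chr5:125434000-125434688) with −log10 q of 264 and 294. They had 115 and 113 in the Ins list, 41.9 and 44.4 in the Del(CBS8-10) list, and 72.9 and 34.8 in the Inv list. The order of the 2 summits was thus not the same in every list. Pigo, an enzyme of glycosylphosphatidylinositol anchor synthesis, had summits 352 bp apart (chr4:43025348-43026032), with 235 and 272, then 170 and 204, 82.0 and 55.7, and 59.3 and 55.4 in the same order of lists. Here too the higher summit changed, between the first pair of lists and the second.

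Pts, an enzyme of tetrahydrobiopterin synthesis, had summits 365 bp apart (chr9:50527965-50528927). Their −log10 q was 224 and 369, then 82.3 and 142 in the Ins, 40.5 and 64.9 in the Del(CBS8-10) and 40.6 and 121 in the Inv list, the second being higher in each. Tex261 (chr6:83775776-83776540, spacing 237 bp) had 225 and 452, then 116 and 210, 50.5 and 69.0, and 32.4 and 87.9, again with 1 order throughout. Ruvbl2 and Gys1, which encode an AAA+ ATPase and muscle glycogen synthase, share a member (chr7:45434223-45434978) with summits 345 bp apart at 278 and 200. The order was reversed in the other lists, with 99.4 and 132, 43.1 and 58.9, and 55.7 and 57.0, by little in the last.

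Hook2, a microtubule-linker protein gene, and Islr2, a neuronal membrane protein gene, had 3 summits each. Those of Hook2 (chr8:84989468-84990650) had −log10 q of 40.8, 220 and 363, and the first of them was the lowest in all lists, at 30.5, 2.89 and 7.47 in the Ins, Del(CBS8-10) and Inv lists. Those of Islr2 (chr9:58203938-58204957) had 112, 244 and 141, and the middle one was highest in every list, at 204, 83.9 and 53.9. The other 4, at Myl6, Pacsin2, Tcaf2 and Ptgdr2, had 2 summits spaced by 225, 266, 147 and 250 bp. Their second strongest summit had a −log10 q of 168, 162, 161 and 152.

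**Figure D5:**
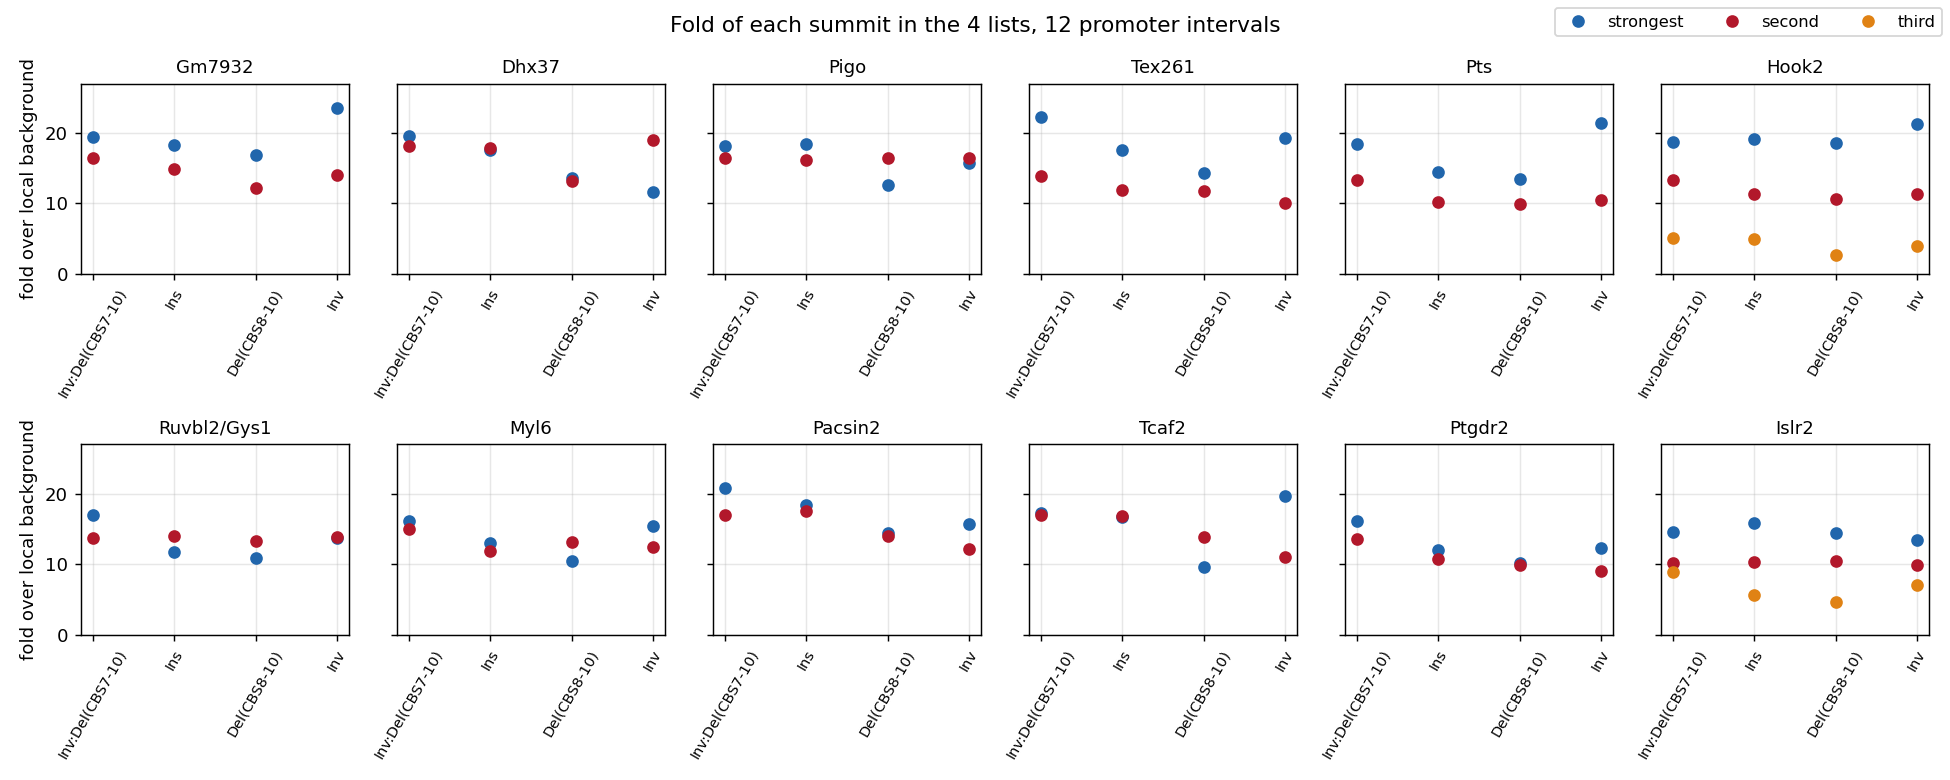
Fold over the local background of the same library at each summit of the 12 promoter members, in the Inv:Del(CBS7-10), Ins, Del(CBS8-10) and Inv lists, with the strongest, the second and the third summit ranked in the Inv:Del(CBS7-10) list. There is 1 library per point; Hook2 keeps 1 order of its 3 summits in all lists, and in Dhx37, Pigo, Ruvbl2/Gys1, Myl6 and Tcaf2 the order of the strongest and the second changes.

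The other members with all summits found numbered 755, and those with the highest values lay in regions of very high background. The strongest of them (chr2:98666266-98667414), 35435 bp from Gm33780, had −log10 q of 9381 and 26183 on a background of 2440 fragments, against 1.33 as the most common background of the list. Members on chromosome 9 (chr9:3023981-3024665 and chr9:3000793-3001623) and chromosome 14 (chr14:19416820-19418039) had backgrounds of 814 to 962 near their summits. In all, 17 members had a background of at least 50 at the strongest summit, and leaving them out left the median spacing and width at 278 and 700 bp. Next by height came members inside Pdcd4, a translation inhibitor gene (chr19:53925252-53925974, 568 and 790 at 211 bp), and inside the spans of Serac1 and Synj2 (chr17:6054848-6055577, 524 and 609 at 239 bp), with backgrounds of 32.6 and 26.7.

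Intervals with the most summits were of several kinds. One with 10 summits lay on chromosome 1 (chr1:24611604-24615615), 73 bp from Gm10222, and another on chromosome 12 (chr12:59035748-59039236), 4272 bp from Gm22973. Their backgrounds were 54.8 and 38.7, and their highest folds over it were 3.80 and 2.52. A member with 5 summits (chr17:39846307-39848244) lay within Rn18s-rs5, a ribosomal RNA sequence, on a background of 92.3. A member with 5 summits near the tRNA gene n-TMcat13 (chr13:21325970-21327647) had a background of 16.8 and −log10 q of 192, 35.6, 119, 10.7 and 2.60, of which the first 3 were found in all other lists. The fifth, near Rbfaos on chromosome 18 (chr18:80184677-80186220), had 34.8, 28.7, 75.2, 2.29 and 10.01, and only its middle summit was found in all.

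A member lay within 10 kb of 22.6% of all protein-coding genes (4314 of 19056). The counts for the lists of genes were 4 of 12 in HoxA, 2 of 9 in HoxC, 7 of 10 in HoxD, 5 of 19 pluripotency genes, 4 of 19 imprinted genes and 4 of 16 genes of CTCF, cohesin and their partners. They were 22 of 69 for ribosomal protein genes and 37 of 57 for clustered protocadherins. Neighbours share members, so the 4 HoxA genes rest on 1 interval, the 2 HoxC genes on 1 and the 7 genes of the HoxD list on 3. Those 7 include Evx2, which is not itself a Hox gene. Protocadherin spans overlap each other, and the 37 genes rest on 9 best intervals.

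Hox genes encode transcription factors of the body axis. In HoxA the member lay 1323 bp from Hoxa9 (chr6:52221473-52222237), with summits 326 bp apart at −log10 q 156 and 35.4. They had 71.8 and 6.62 in the Ins, 25.9 and 11.3 in the Del(CBS8-10) and 62.3 and 5.16 in the Inv list, the first being higher in all. In HoxD a member within Hoxd3 (chr2:74715772-74716352) had summits of like height, 140 and 119 at 246 bp, with 108 and 90.3, 38.0 and 39.0, and 40.8 and 10.1 in the other lists. A second, 1301 bp from Hoxd13 (chr2:74672521-74673308), had 67.9 and 51.1 at 239 bp, and both its summits were found everywhere. At Hoxc10 (chr15:102966273-102967003) the stronger summit, 157, was found in all lists, and the weaker, 6.81, in the Ins list alone.

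Pluripotency genes keep stem cells undifferentiated, and 5 had a member near. Where several members lie within 10 kb of a gene, the one with the highest −log10 q of its second strongest summit is given. For Pou5f1 (Oct4) it lay in Tcf19 (chr17:35513282-35514398) with 3 summits at −log10 q 66.5, 27.3 and 189, all found in the 3 other lists. The one near Nanog (chr6:122702444-122703260) had 2 even summits, 63.3 and 64.8, spaced by 424 bp. In the other lists these had 17.4 and 5.46 (Ins), 10.4 and 11.3 (Del(CBS8-10)) and 11.1 and 29.5 (Inv), with no constant order. The member within Esrrb (chr12:86508400-86509109) had 62.7 and 170 at 248 bp, and the second was the higher in all lists. Near Sox2, within Sox2ot (chr3:34640718-34641262), the weaker summit (19.5) was found in the Ins list alone.

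Imprinted genes are expressed from 1 parental allele, and a control region beside H19 is a known site of several CTCF sites. A member 2177 bp from H19 (chr7:142580176-142580893) had summits 432 bp apart with −log10 q of 52.2 and 46.8. They had 36.9 and 41.5 in the Ins, 10.6 and 27.9 in the Del(CBS8-10) and 8.09 and 29.3 in the Inv list, so both were found in every list. Within Peg3 (chr7:6727121-6727972) the strongest summit had 662, and 349, 136 and 77.9 in the other lists, whereas the weaker, 341 bp away at 67.5, was found in the Inv list alone (5.37). Near Nnat and Cdkn1c the weaker summits, at 60.4 and 2.82, were found in 1 and none of the other lists.

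The clustered protocadherins, neuronal cell-surface proteins whose variable exons have their own promoters, many with CTCF sites, held members along their clusters on chromosome 18. They are named here by the gene whose low-coordinate end lies nearest. The one at Pcdha5 (chr18:36960073-36961204) had even summits of 194 and 175 spaced by 639 bp, found in every list. In the others these had 96.6 and 104 (Ins), 56.0 and 80.0 (Del(CBS8-10)) and 19.5 and 34.2 (Inv). Members at Pcdha1, Pcdha4, Pcdha6 and Pcdha12 had 3 summits each, and their outer summits were all found in every list. Their middle summits, at −log10 q 85.4, 11.2, 24.4 and 5.54, were found in 2, 0, 0 and 0 lists. The outer summits of these 4 lay 619, 631, 613 and 622 bp apart, near the 639 bp of Pcdha5, and the 2 of Pcdha10 578 bp apart. At Pcdhb11 and Pcdhb12 the spacing was 405 bp in both, with all summits found in every list. At Pcdhga6, Pcdhga8 and Pcdhgb5 a strong summit (222, 185 and 137) was accompanied by a weak one (2.63, 5.07 and 2.42) found in 1, 0 and 1 lists. The remaining members of the clusters showed no single pattern. At Pcdhb16 the weaker summit (53.1, at 224 bp) was found in no list. Another member lay outside the span of Pcdhga1, 6155 bp from its low-coordinate end. Both summits of that member (73.2 and 70.4, at 253 bp) were found in all lists. At Pcdhgb1 and Pcdhga10 the weaker summits (91.1 and 65.1) were found in 2 lists. The member named for Pcdhga12 lay 6545 bp from its low-coordinate end, and another 46629 bp from Pcdhb1. Each had 3 summits (34.0, 173 and 7.18, and 30.9, 4.37 and 203), of which only the strongest was found in every list.

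Ribosomal protein genes, which are highly transcribed in growing cells, had a member near in 31.9% of cases (interval 22.1 to 43.6, which includes the 22.6% of all genes). The one at Rpl11 (chr4:136053300-136054259) had 3 summits at −log10 q 198, 9.19 and 80.0, and the middle one was found in the Ins list alone. Near Rpl4, closest to the start of Snapc5 (chr9:64178645-64179689), the 3 summits, at 68.8, 36.2 and 34.1, were all found in every list. At Rpl32 (chr6:115808674-115809213) the summits had like values of 36.7 and 43.1 at 218 bp, and the first was found in no other list. At Rpl7l1 (chr17:46782606-46783593) both summits, 35.8 and 172, were found in all lists.

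Among genes of CTCF and its partners, the member at Pagr1a near Maz, a zinc-finger factor (chr7:127016915-127017537), had summits of 54.7 and 36.01 at 266 bp, both found in every list. Those within Stag1, a cohesin subunit gene (chr9:100605889-100606469, 8.68 and 9.74), and 2109 bp from Zfp143 (chr7:110059204-110059727, 8.15 and 9.14) were weak. Neither had both summits in all lists, and their pileups were 14 and 15, and 18 and 19 fragments.

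The extremes of spacing behaved differently in the other lists. The closest pairs, spaced by 27, 45 and 47 bp, lay within Fry, within Gm52134 and 13561 bp from Terf1. The summits within Fry were weak (1.53, 1.57 and 3.60) and were found in no list. In the member near Terf1 the strongest summit (195) had no match within 100 bp, while its neighbour (194) was found in all 3. The matches lay 71 (Ins), 81 (Del(CBS8-10)) and 61 bp (Inv) from the neighbour, on the side away from the strongest summit. The strongest summit thus missed them only by lying just past the 100 bp limit. In the member within Gm52134 (64.5 and 81.7), 1 summit of the Del(CBS8-10) list, of 13.7, lay within 100 bp of both. Pairs spaced this closely can thus share a match. The widest spacings, 1134, 934 and 874 bp, lay within Crybb3 (chr5:113078598-113080172), 38576 bp from Gm5334 (chr7:68579693-68580986) and 4760 bp from Gm40685 (chr10:69306251-69307627). All 6 of these summits were found in all 3 other lists, with −log10 q of 147 and 44.2, 275 and 184, and 119 and 204 in the Inv:Del(CBS7-10) list.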

How the data were processed

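CTCF CUT&RUN was done in 4 mouse embryonic stem cell lines, 1 library each. Peaks come from MACS2 2.2.7.1, and the build was mm10, per the submitters' processing notes, which also list Bowtie2 2.4.5 and cutadapt 4.1. Settings, any control library and read depth are not stated there. Per the file columns, the deposited score is the −log10 q times 10 as a whole number, to within 1. The fold over local background (a ratio) and the −log10 p-value and −log10 q-value were deposited by the authors, as was the summit position, given as an offset from the interval start. Chromosome 11 carries the edits and was left out.

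From these lists the summits were grouped by interval and matched across lists within 100 bp, in Python 3.11.15 (pandas 2.3.3, NumPy 2.4.6, SciPy 1.17.1 and, for the figures, Matplotlib 3.10.9). Shares have 95% Wilson intervals and medians distribution-free ones, which cover counting error only, and neighbouring intervals are not independent. Pileup and background were solved from fold and p-value for 100% of summits of the Inv:Del(CBS7-10) list. The −log10 p-value had to be met to within 0.001, or to within 0.001 times its value where that is larger. The scripts were tested on simulated data. Gene starts and windows came from RefSeq tables (GRCm38.p6), and chromosome 18 was left out of the promoter analysis.

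The members and gene lists were chosen with earlier results of these data known. Named were the 5 intervals with most summits, the 12 promoter and 6 other intervals with every summit found and the highest second −log10 q, up to 4 genes per list, the 3 widest and 3 narrowest spacings, and windows with 2 summits. The further members within the protocadherin clusters were added after their values were seen. Alternatives changed the match distance, promoter definition, −log10 q minimum, background limit and list.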

Additional observations from a re-analysis of the deposited data

How the results depend on the processing

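No paired analysis was possible because there is 1 library per genotype, and there was no replicate to leave out. Of 61 recomputed values, 42 moved, that is beyond the 95% interval of the main value or, for the number of members, by more than 1.5 times, and 19 did not. Causes were not tested.

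With a −log10 q of at least 10, 3051 members remained by the rule, of median width 742 bp, with a promoter share of 13.5%. Their summits were found in 82.3% (Ins), 72.7% (Del(CBS8-10)), 70.0% (Inv) and 59.7% (all 3), against 87.7%, 77.5%, 74.3% and 63.4% of all summits. The Del(CBS8-10) and Inv lists gave 2587 and 1733 members with a median spacing of 268 bp in both. Median width was 663 bp in the Ins, 587 bp in the Del(CBS8-10) and 581 bp in the Inv list.

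Promoter shares of several-summit and single-summit intervals were 9.72% and 5.58% within 500 bp, 15.3% and 9.46% within 2 kb, 9.16% and 4.05% where the interval overlapped a start, and 15.2% and 8.58% with starts of all genes. They were 13.8% and 8.22% in the Ins, 10.9% and 6.72% in the Del(CBS8-10) and 13.8% and 8.59% in the Inv list. Over width classes from 400 to 1000 bp they were 12.8% and, for single-summit intervals weighted to the members' widths, 3.75%. The several-summit share was the higher in each of these settings. For overlap of the interval with a start, a higher share is partly built in, since members are wider.

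Member summits found in Ins, Del(CBS8-10), Inv and all 3 were 66.8%, 56.5%, 53.4% and 44.4% within 50 bp, against 68.0%, 56.7%, 52.6% and 42.3% of all summits. Within 250 bp they were 80.2%, 69.5%, 67.1% and 56.9%, against 74.9%, 62.5%, 59.4% and 48.0%. Inside any interval of the other list they were 82.6%, 68.4%, 64.3% and 55.5%, against 74.7%, 61.8%, 58.4% and 47.4%. Without the Inv list, an alternative chosen after seeing the data, 56.2% were found in both others. Leaving out intervals with a background of at least 50, also chosen after seeing the data, and one-to-one matching moved no value beyond its interval.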
